A study of Mus musculus with 8 samples.

Results

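Sox2 and the squamous and basal cell genes taken with it here are 8 mouse genes, Sox2, Trp63, Krt5, Krt14, Krt6a, Dsg3, Ngfr and Pitx1, and their members in the data are all peaks that the deposited H3K4me3 table lists under those gene names. The table lists 7 such peaks among 35486 in all, and they belong to 3 of the 8 genes: 3 peaks to Sox2, 3 to Pitx1 and 1 to Ngfr. No peak was listed under Trp63, Krt5, Krt14, Krt6a or Dsg3, and no peak listed under another gene was annotated as lying inside them. The genes were chosen by their known roles and with the KLG4m/m over KL differences of read counts at these peaks already in view, so the differences of their peaks are given below as a description. Calls from the fit across all peaks are stated once for these peaks and their sums, beside the share of all peaks called, and are not evidence about the genes.

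The study asked how deletion of Gpx4, the glutathione peroxidase that reduces lipid hydroperoxides in membranes, changes lung tumors that have already formed. Here the histone mark H3K4me3 was profiled by CUT&Tag, and the tumor cells used were CD45-CD31-EpCAM+, that is, lung cells without the surface proteins of leukocytes and endothelium and with that of epithelium. The KL group was 2 libraries of mice with Lkb1fl/fl, which Cre removes, and a further Cre-dependent allele that both groups carry, and the KLG4m/m group was 2 libraries of mice that had these and Gpx4m/m, so that their tumor cells also lose Gpx4. Both groups received intranasal adenoviral Cre and then tamoxifen, both were on a C57BL/6 background, and cells were taken 10 weeks after the virus. In KLG4m/m mice Cre first frees a CAG-driven DreERT2 recombinase at the Gpx4 locus, and tamoxifen then lets it act, so the KLG4m/m cells also carry that construct and the KL cells do not. The virus is not restricted to a lung cell type, and Gpx4 loss itself was not measured in these libraries. The study's methods put the mice at 8 to 10 weeks of age when the virus was given. Its figure legend gives 2 mice per group for this assay, while the protocol text gives 3 mice in total for 4 H3K4me3 libraries. Whether each library is a separate mouse is therefore not certain. The SD below is the spread between 2 libraries, which may be technical in part. Standard errors and p-values likewise rest on the spread between libraries and may not measure that between mice. H3K27ac, also profiled in the study, was not analysed here.

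H3K4me3 sits around the start sites of genes that are transcribed or held ready, where methyltransferases of the SET1 and MLL families place it, and it is densest at starts rich in CG dinucleotides. SOX2 is a transcription factor of the embryonic foregut that later stays on in the basal and secretory cells of the airways and is a known lineage factor of squamous lung cancer. Basal cells are the stem cells of stratified and airway epithelium: p63, the product of Trp63, sets their identity, the keratins 5 and 14 pair into their filaments, and NGFR marks them on the surface. The alveolar cells from which lung adenocarcinoma commonly grows normally lack p63 and keratin 5.

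The 250 bases before the start of Sox2, of Ngfr and of Krt5 are shown because their content in CG dinucleotides differs widely, and a promoter peak was listed for Sox2 and Ngfr and not for Krt5. They are from RefSeq, build GRCm38.p6, each 5′ to 3′ on the strand of its gene, with every CG in capitals. The Sox2 window lies at chr3:34649745-34649994 on the plus strand, the Ngfr window at chr11:95587699-95587948 on the minus strand and the Krt5 window at chr15:101712906-101713155 on the minus strand.
Sox2: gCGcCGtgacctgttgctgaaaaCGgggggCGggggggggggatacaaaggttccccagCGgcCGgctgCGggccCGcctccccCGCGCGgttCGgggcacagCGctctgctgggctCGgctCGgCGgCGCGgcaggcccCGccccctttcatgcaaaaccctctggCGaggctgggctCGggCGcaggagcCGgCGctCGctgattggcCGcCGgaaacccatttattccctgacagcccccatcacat
Ngfr: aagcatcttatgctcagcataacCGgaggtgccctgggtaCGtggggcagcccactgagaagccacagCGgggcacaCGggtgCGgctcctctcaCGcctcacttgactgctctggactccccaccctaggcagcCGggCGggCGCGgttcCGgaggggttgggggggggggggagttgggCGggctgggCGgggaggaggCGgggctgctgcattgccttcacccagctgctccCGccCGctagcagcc
Krt5: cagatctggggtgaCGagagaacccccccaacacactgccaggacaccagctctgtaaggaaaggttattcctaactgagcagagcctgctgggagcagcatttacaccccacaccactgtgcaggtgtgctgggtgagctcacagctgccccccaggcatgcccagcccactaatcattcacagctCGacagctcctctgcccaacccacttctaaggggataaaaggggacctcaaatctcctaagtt

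The Sox2 window held 27 CG, at the 91.9 percentile of the 32841 promoter windows of that build, and the Ngfr window held 16, at the 75.5 percentile. The Krt5 window held 2, at the 23.9 percentile. Windows with equal counts share their mean rank in these percentiles. The G and C bases made up 72.0% of the Sox2 window, 70.4% of the Ngfr window and 56.0% of the Krt5 window. A GC box (GGGCGG or CCGCCC, read on both strands) was found 2 times in the Sox2 window and 4 times in the Ngfr window, and a CCAAT box (CCAAT or ATTGG) 1 time in the Sox2 window. Neither motif was found in the Krt5 window. These are matches of letters only: 32.7% of all windows hold a GC box and 33.9% a CCAAT box. TATAAA or TTTATA was in none of the 3, against 12.4% of all windows. Krt14, the partner of Krt5, had a window with 5 CG whose start lay 1480 bases inside the gene, and Trp63, Krt6a, Dsg3 and Pitx1 had none in the table used.

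Among the 14724 protein-coding genes with a single window, 52.7% had a listed peak within 1 kb of a start. The share ran from 10.7% of the genes with 0 to 2 CG, the class of Krt5, and 33.8% with 3 to 5, that of the Krt14 window, up to 79.5% with 16 to 20, that of Ngfr. With 21 or more, as for Sox2, it was 78.0%. Sox2 and Ngfr, with a listed peak, fell in classes where most genes had one, and Krt5, without one, in the class where few had. These 3 windows were shown because they differ in this way, so a link in these genes was not tested. The Krt14 window starts inside the gene, so its CG count need not be that of the promoter and is not set beside the listing.

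**Figure D1:**
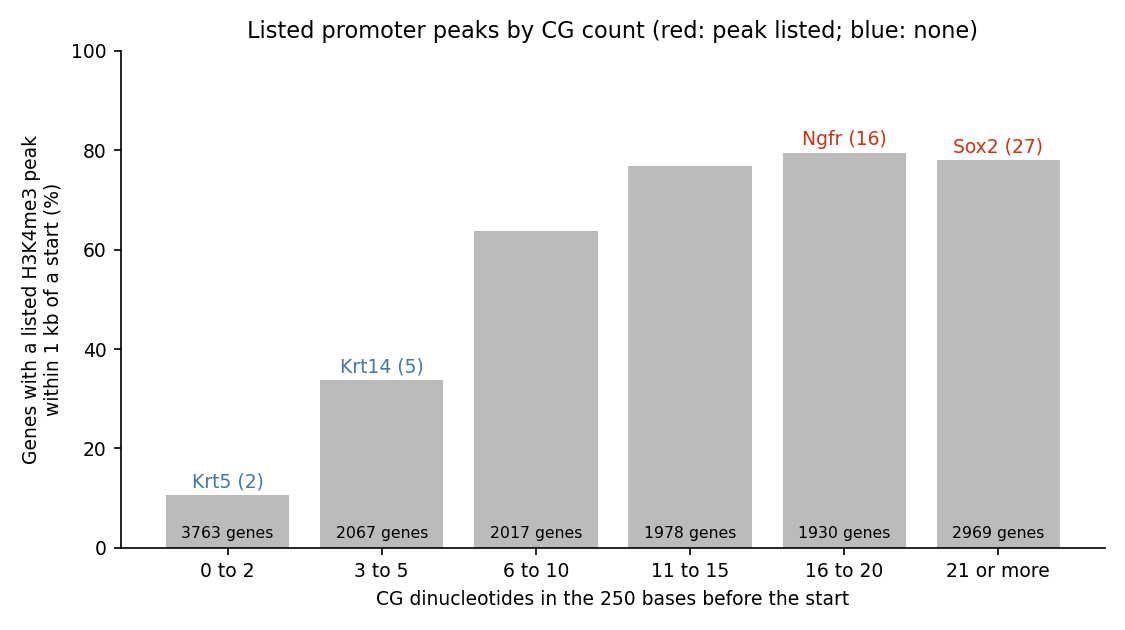
Share of protein-coding genes with a listed H3K4me3 peak within 1 kb of a start (vertical axis, percent) by the number of CG dinucleotides in the 250 bases before the start (horizontal axis, 6 classes with their numbers of genes). The share rises from 10.7% in the lowest class to between 76.9% and 79.5% in the highest 3. Sox2 (27 CG) and Ngfr (16 CG) fall in the high classes, and Krt5 (2 CG) falls in the lowest. The Krt14 window (5 CG) starts inside the gene and need not be its promoter.

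Depth was alike: the 4 libraries had between 3244495 and 3463731 reads in listed peaks. Values below are reads, or CPM, reads per 1000000 of those reads after TMM scaling in edgeR (factors 0.995 to 1.00), and a log2 fold change is KLG4m/m over KL. All 7 peaks are windows of 400 bases, so their levels can be set side by side. Counts were low: each library had between 10 and 57 reads in each of the 7 peaks, and the sum over the 4 libraries lay between 90 and 205, against a median of 183 over all listed peaks. Because the table holds only called peaks, a gene without one is not a gene with a count of 0. As tissue controls, Nkx2-1, Foxa1, Epcam and Cdh1, which mark lung and epithelial cells, all had listed promoter peaks. The leukocyte gene Ptprc, whose protein CD45 was gated against, had 2 listed peaks with 189 to 241 reads per library between them. In these pooled cells, more cells with the mark and more mark per cell cannot be told apart.

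The level of H3K4me3 at the start of Sox2 was low for a promoter. Its promoter peak averaged 8.36 CPM over the 4 libraries, above only 14.1% of the 17073 peaks within 1 kb of a start, whose median was 41.2 CPM. The promoter peak of Pitx1, a homeodomain factor known for hindlimb identity that is also expressed in stratified epithelia, averaged 8.74 CPM, and that of Ngfr, which encodes the p75 neurotrophin receptor, 12.9 CPM, above 21.9% of them. The lung and epithelial genes set beside them, chosen for their known roles, stood higher on the same scale of mean CPM. Nkx2-1, the lineage factor of alveolar cells, had 19.7 CPM at its promoter peak, and Foxa2 had 18.7 CPM. The simple keratin genes Krt8 and Krt18 had 28.0 and 29.8 CPM, and Cdh1, which encodes E-cadherin, 38.8 CPM. Not every lung gene stood higher. Lamp3 and Hnf4a, from the alveolar list below, averaged 4.13 and 9.58 CPM over 1 listed peak each, both below Ngfr. Sox9, the SOX gene of distal lung progenitors, had 14.9 CPM and Sox4 43.5 CPM. The 7 peaks lay at the 14.1 to 84.4 percentile of their own kind of position, with a median of 48.9, so the promoter peaks were low among promoters while the peak 14.7 kb after the Sox2 start was high among the 7891 peaks in introns.

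**Figure D2:**
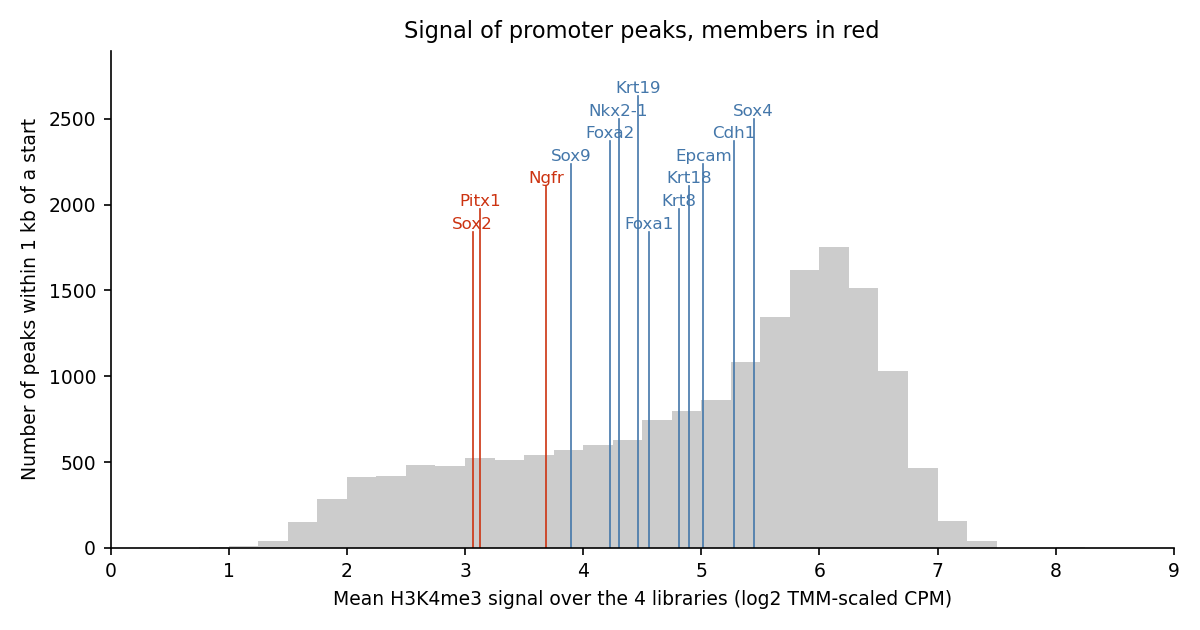
Number of listed peaks within 1 kb of a start (vertical axis) by mean H3K4me3 signal over the 4 libraries (horizontal axis, log2 of TMM-scaled CPM), with lines for single genes. Sox2 (8.36 CPM), Pitx1 and Ngfr, in red, stand to the left of the genes in blue, which were chosen for their known roles. The members also stand far below the median of 41.2 CPM.

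At Sox2, all 3 listed peaks had more reads in both KLG4m/m libraries than in both KL libraries once scaled to CPM, and the gap was widest at the middle one, in the last intron of Sox2ot. Sox2ot is the long noncoding RNA gene that overlaps Sox2 on the same strand. Positions of peaks are as the table gives them, with Sox2 starting at 34704144 on chromosome 3, which is not its position in GRCm38.p6.

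The promoter peak of Sox2 (chr3:34704130-34704530) had 21 and 26 reads in KL and 27 and 39 in KLG4m/m. In CPM this was 6.77 ± 1.02 in KL and 9.95 ± 3.0 in KLG4m/m (SD, n = 2 libraries), a log2 fold change of 0.55 with a standard error of 0.286. KLG4m/m replicate 4 was high and replicate 3 was close to KL replicate 2, so the groups did not overlap but nearly touched. The log2 fold change was 0.21 without KLG4m/m replicate 4 and 0.83 without replicate 3.

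The peak 7.18 kb after the start (chr3:34711323-34711723, intron 4 of 4 of Sox2ot) had 10 and 14 reads in KL and 41 and 35 in KLG4m/m. The CPM was 3.45 ± 0.817 in KL and 11.4 ± 0.745 in KLG4m/m (SD, n = 2), and the log2 fold change was 1.71 with a standard error of 0.309. Both KLG4m/m libraries were high and close to each other, both KL libraries were low, and the groups were far apart. This log2 fold change was the 66th highest of the 35486 peaks. The peak was the least marked of the 7 in KL and among the middle ones in KLG4m/m.

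The peak 14.7 kb after the start (chr3:34718798-34719198, also in intron 4 of Sox2ot) had 39 and 56 reads in KL and 57 and 53 in KLG4m/m. It was the most marked of the 3 peaks in both groups, with 13.7 ± 3.47 CPM in KL and 16.5 ± 0.0851 CPM in KLG4m/m (SD, n = 2) and a log2 fold change of 0.27 with a standard error of 0.211. KL replicate 1 was low and the other 3 libraries lay together, so the groups were hardly apart. Without KL replicate 1 the log2 fold change was 0.03, and without KL replicate 2 it was 0.55.

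Summed over its 3 peaks, Sox2 had 70 and 96 reads in KL and 125 and 127 in KLG4m/m, or 23.9 ± 5.27 and 37.7 ± 2.01 CPM (SD, n = 2). The log2 fold change of the sum was 0.66 with a standard error of 0.156. The peak at 7.18 kb held 14.3% and 14.6% of the Sox2 reads in the KL libraries and 32.8% and 27.6% in the KLG4m/m libraries. Without it, in a sum chosen after its values were seen, Sox2 had 60 and 82 reads in KL and 84 and 92 in KLG4m/m, and the log2 ratio of the group means was 0.37. KLG4m/m replicate 3 then lay just above KL replicate 2 in CPM, with 24.4 against 23.6.

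Around Sox2, 1 other peak was listed within 500 kb of the start. It is centred at -7.42 kb, before the start (chr3:34696529-34696929), in intron 3 of 4 of Sox2ot and is listed under the microRNA gene Mir1897. It had 11 and 20 reads in KL and 21 and 28 in KLG4m/m, with a log2 fold change of 0.71 (standard error 0.345), which did not pass edgeR's quasi-likelihood test (adjusted p = 0.199). The nearest listed peaks beyond the window had less of a difference: the promoter of Dnajc19, a mitochondrial import gene, at -569 kb had a log2 fold change of 0.01 (adjusted p = 0.957), and the noncoding Gm35425, at 668 kb, had 0.32 (adjusted p = 0.683). Over the 4 peaks within 500 kb the level was 28.4 ± 7.15 CPM in KL and 45.2 ± 4.0 CPM in KLG4m/m (SD, n = 2).

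**Figure D3:**
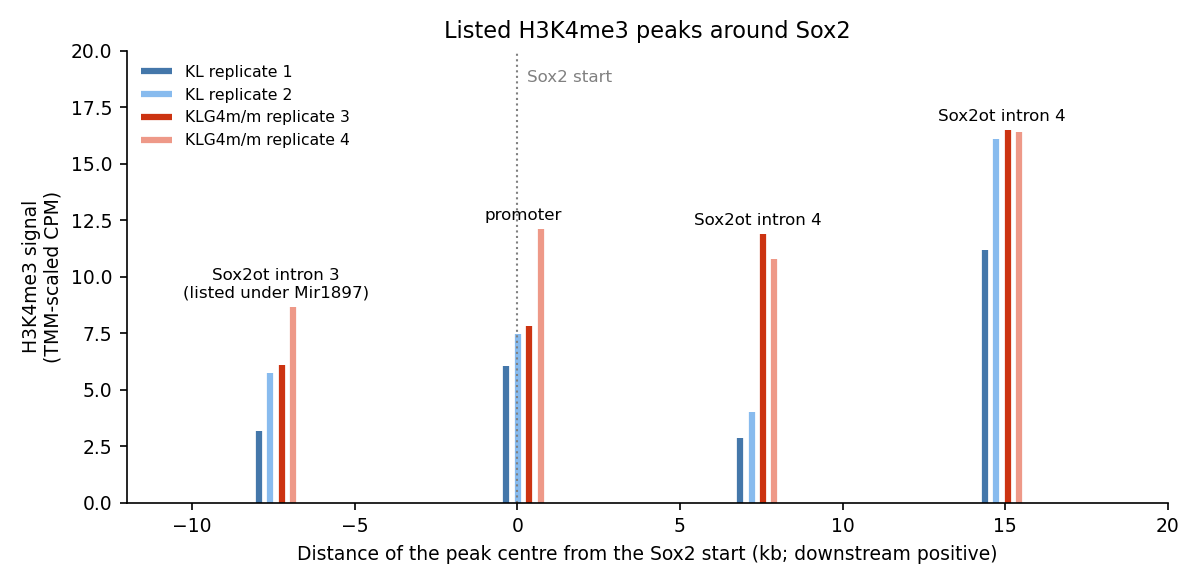
H3K4me3 signal (vertical axis, TMM-scaled CPM) of the 4 listed peaks around Sox2 by the distance of the peak centre from the Sox2 start (horizontal axis, kb), with a bar for each library. At the middle Sox2ot intron peak the KLG4m/m bars average 11.4 CPM against 3.45 CPM in KL, while the bars of the last peak are of like height in 3 of the 4 libraries.

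Pitx1 had peaks at its start and on both sides of it. The promoter peak, 0.642 kb inside the gene (chr13:55978096-55978496), had 25 and 27 reads in KL and 39 and 28 in KLG4m/m, or 7.48 ± 0.414 and 9.99 ± 1.87 CPM (SD, n = 2), a log2 fold change of 0.42 with a standard error of 0.267. KLG4m/m replicate 3 was high, and replicate 4 was just above the KL libraries. Without replicate 3 the log2 fold change was 0.21, and leaving out 1 library at most raised it to 0.60.

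The peak 2.98 kb inside Pitx1 (chr13:55975760-55976160) was the most marked peak of the gene. KL libraries had 42 and 28 reads there, and KLG4m/m libraries 50 and 54. Its CPM was 10.1 ± 2.84 in KL and 15.6 ± 1.57 in KLG4m/m (SD, n = 2), and its log2 fold change was 0.63 with a standard error of 0.231. KL replicate 2 was low and the groups did not overlap. Leaving out KL replicate 2 gave a log2 fold change of 0.37 and leaving out KL replicate 1 gave 0.95.

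The intergenic peak before Pitx1, at -11.7 kb (chr13:55995723-55996123) had 17 and 24 reads in KL and 27 and 22 in KLG4m/m. Its distance is counted from a second Pitx1 start at 55984002, and those of the peaks inside the gene from the start at 55979138. Here the groups overlapped, and the log2 fold change was 0.31 with a standard error of 0.307, or 0.09 without KL replicate 1 and 0.58 without KL replicate 2. Summed over the 3 peaks, Pitx1 had 84 and 79 reads in KL and 116 and 104 in KLG4m/m, a log2 fold change of 0.49 with a standard error of 0.159. The Pitx1 libraries were closer to each other within each group than the Sox2 libraries in KL.

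Ngfr had 1 peak, at its start (chr11:95478084-95478484), where KL libraries had 43 and 33 reads and KLG4m/m libraries 56 and 44. The CPM was 10.9 ± 2.03 in KL and 14.9 ± 1.85 in KLG4m/m (SD, n = 2), and the log2 fold change was 0.45 with a standard error of 0.223. KLG4m/m replicate 3 was high, and KLG4m/m replicate 4 and KL replicate 1 were near each other. Without KL replicate 2 the log2 fold change was 0.27, and without KL replicate 1 it was 0.65.

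**Figure D4:**
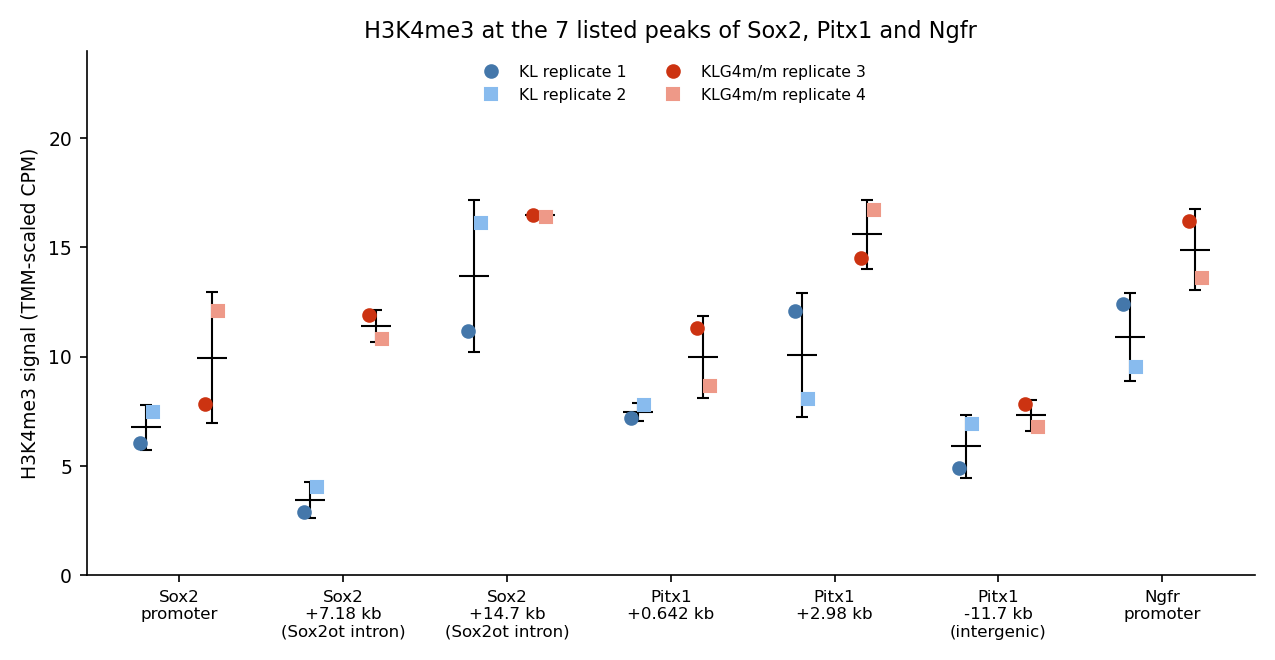
H3K4me3 signal (vertical axis, TMM-scaled CPM) at the 7 peaks of Sox2, Pitx1 and Ngfr in each library (points, blue for KL and red for KLG4m/m), with the mean and SD of each group in black (n = 2 libraries). The groups stand far apart at the Sox2 peak 7.18 kb after the start, nearly touch at most others and overlap at the Pitx1 peak at -11.7 kb.

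Across the 7 peaks the log2 fold changes lay between 0.27 and 1.71 with a median of 0.45, against a median of 0.01 over all peaks. All 7 were above 0, as were 51.0% of all peaks, and in 6 of the 7 both KLG4m/m libraries lay above both KL libraries, as in 27.5% of all peaks. At an adjusted p of 0.05 in edgeR's quasi-likelihood test, 1 of the 7, the Sox2 peak at 7.18 kb, was called higher and none lower, against 3.10% of all peaks called higher and 5.52% lower. Of the 3 genes, the summed reads of Sox2 and Pitx1 were called higher, against 5.38% of the 20871 genes. All 3 sums had a log2 fold change above 0, as had 50.3% of all genes, and no overlap between the groups with KLG4m/m above, as had 27.9%. At an unadjusted p under 0.05, 2 of the 7 peaks were higher, against 11.2% of all peaks, and in all genes the share was 12.4%. Since this contrast was in view when the genes were chosen, nothing is read from these counts. The 7 peaks together held 197 and 208 reads in KL and 297 and 275 in KLG4m/m, a log2 ratio of the group means of 0.56, and 0.44 without the Sox2 peak at 7.18 kb.

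The call of the Sox2 peak at 7.18 kb was lost without KLG4m/m replicate 3 or without replicate 4, when no peak of the whole table was called, and in DESeq2 and limma, though its log2 fold change stayed between 1.48 and 1.97. The call of the Sox2 sum was lost in the same settings and also without KL replicate 1, at 0.45, and that of the Pitx1 sum was lost in DESeq2 and limma and whichever library was left out, at 0.45 to 0.54.

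Of the 5 genes without a listed peak, Krt5, Krt14 and Krt6a are keratin genes, the last induced in wounded and fast dividing epidermis. Of the 53 keratin genes in RefSeq, 12 (22.6%) were listed and 4 (7.55%) had a peak within 1 kb of a start: Krt8, Krt18 and Krt19, keratins of simple epithelium, and Krt23. Among all protein-coding genes 62.1% were listed and 56.3% had such a peak. Krt5 and Krt6a are neighbours on chromosome 15, in a run of keratin genes without a listed peak that stretches from Krt83 to Krt1, and Krt14 on chromosome 11 lies in a run between Krt19 and Krt42. Absence from the list is not proof of absence of the mark, since Krt7, a keratin of simple epithelium, was not listed either, a peak goes to the gene of the nearest start, and reads of near-identical copies such as Krt6a and Krt6b could fail the mapping filter.

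Dsg3 encodes a desmosomal cadherin of stratified epithelium. In its gene cluster only Dsg2 and Dsc2, the forms used by simple epithelium, were listed: 1 of 6 desmoglein genes and 1 of 3 desmocollin genes. Trp63, which encodes p63, had no listed peak, while both other genes of the p53 family, Trp53 and Trp73, did. Its neighbours P3h2 on one side and Lpp beyond Tprg on the other were listed. Of the SOX genes 14 of 19 (73.7%) were listed, and of the PITX genes 3 of 3, against 62.1% of all protein-coding genes. These counts include Sox2 and Pitx1 themselves, and nothing about the families is read from them.

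Genes that work with the members were read from lists, as summed reads per gene with edgeR's quasi-likelihood test adjusted over all 20871 genes, and the changes below are log2 fold changes of those sums. Of 56 genes in 5 squamous and basal lists, 38 had a listed peak, 3 rose in KLG4m/m and 4 fell, and the median log2 fold change was 0.01, against 0.00 over all genes, of which 5.38% rose and 9.63% fell. None of the calls in the lists below held without KLG4m/m replicate 3 or without replicate 4, when edgeR called no gene at all. Of the 34 calls over all lists, 12 held in DESeq2 and also without either KL library, among them Pkp1, Pkp2, Bcl11a, Dst, Rtn4r, Sftpa1, Epcam, Itgam, Lyz2 and Insm1, and each of the others named below was lost in at least 1 of these. Of the 38, 19 had a log2 fold change above 0, as had 50.3% of all genes.

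Among 10 squamous and basal keratins, Krt1, Krt4 and Krt10 were listed, none with a peak within 1 kb of a start. Krt1, a keratin of the upper epidermis, fell by 0.58 on the log2 scale (adjusted p = 0.0265, 83 and 75 reads in KL, 51 and 51 in KLG4m/m), a call lost in DESeq2, in limma and whichever library was left out. Of 12 desmosome and adhesion genes 11 were listed, and the 2 that changed are both plakophilins, plaque proteins that tie desmosomal cadherins to keratin. Pkp1, the form of stratified epithelium, rose with a log2 fold change of 1.78 (adjusted p = 7.74e-05), from 10 and 10 reads in KL to 42 and 25 in KLG4m/m. Pkp2, the form of simple epithelium and heart, fell by 0.69 on the log2 scale (adjusted p = 3.35e-05). Pkp1 had 1 listed peak, and the groups did not overlap.

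Of 14 squamous transcription factors 13 were listed, 2 rose and 1 fell. Trp73, the p63 relative known for multiciliated cells, rose by 0.67 (adjusted p = 0.00667, 47 and 62 reads in KL, 82 and 85 in KLG4m/m). Its listed peak nearest the start had a log2 fold change of only 0.06, and the call was lost there, in DESeq2, in limma and without KL replicate 1. Bcl11a, a zinc finger factor known from blood cells and from squamous lung cancer, rose by 0.53 (adjusted p = 2.53e-05). Grhl1, an epithelial factor, fell by 0.34 (adjusted p = 0.0107; -0.87 at the nearest peak). Of 10 hemidesmosome and basement membrane genes 9 were listed and 1 changed: Dst, which encodes the plakin that links hemidesmosomes to keratin, fell by 0.45 (adjusted p = 2.21e-05). Of 10 cornified envelope genes Cnfn and Tgm1 were listed and neither passed the test, with log2 fold changes of -0.15 and 0.14.

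In the SOX family, 13 of 18 genes besides Sox2 were listed, and 2 changed: Sox5, a factor of cartilage and neurons, rose by 0.42 (adjusted p = 0.0298), a call lost in DESeq2, in limma, at the nearest peak and whichever library was left out (0.22 without KLG4m/m replicate 3), and Sox18, a factor of endothelium, fell by 0.59 (adjusted p = 0.0215). All 12 neurotrophin and Trk genes, which share ligands or signaling with NGFR, were listed, and the 1 that changed was Rtn4r, the Nogo receptor for which NGFR is a partner. It fell, with a log2 fold change of -2.20 (adjusted p = 7.98e-12), from 60 and 113 reads in KL to 20 and 16 in KLG4m/m.

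Of the airway cell list, the normal home of SOX2, 8 of 12 genes were listed, 2 rose and 2 fell. Ltf, a secreted iron binder, rose by 1.07 (adjusted p = 0.0085) and Cyp2f2, an enzyme of club cells, by 0.56 (adjusted p = 0.031), while Aqp5 and Tppp3 fell by 0.74 and 0.38 (adjusted p = 0.00558 and 0.00983). The Cyp2f2 call was lost at its listed peak nearest the start, where the log2 fold change was 0.35. Whether the changes of these 4 genes came from airway cells or from other cells in the libraries was not tested. Of 15 alveolar and adenocarcinoma genes 13 were listed, none rose and 8 fell, with a median log2 fold change of -0.65 and a summed level of 735 to 737 CPM in KL and 577 to 601 CPM in KLG4m/m. Lamp3 fell by 2.52 (adjusted p = 3.36e-05), Sftpa1 by 1.22 (adjusted p = 1.56e-06), Hnf4a by 1.13 (adjusted p = 0.00196) and Sftpd by 1.00 (adjusted p = 0.00307), and Nkx2-1 had a log2 fold change of -0.13 and was not called.

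**Figure D5:**
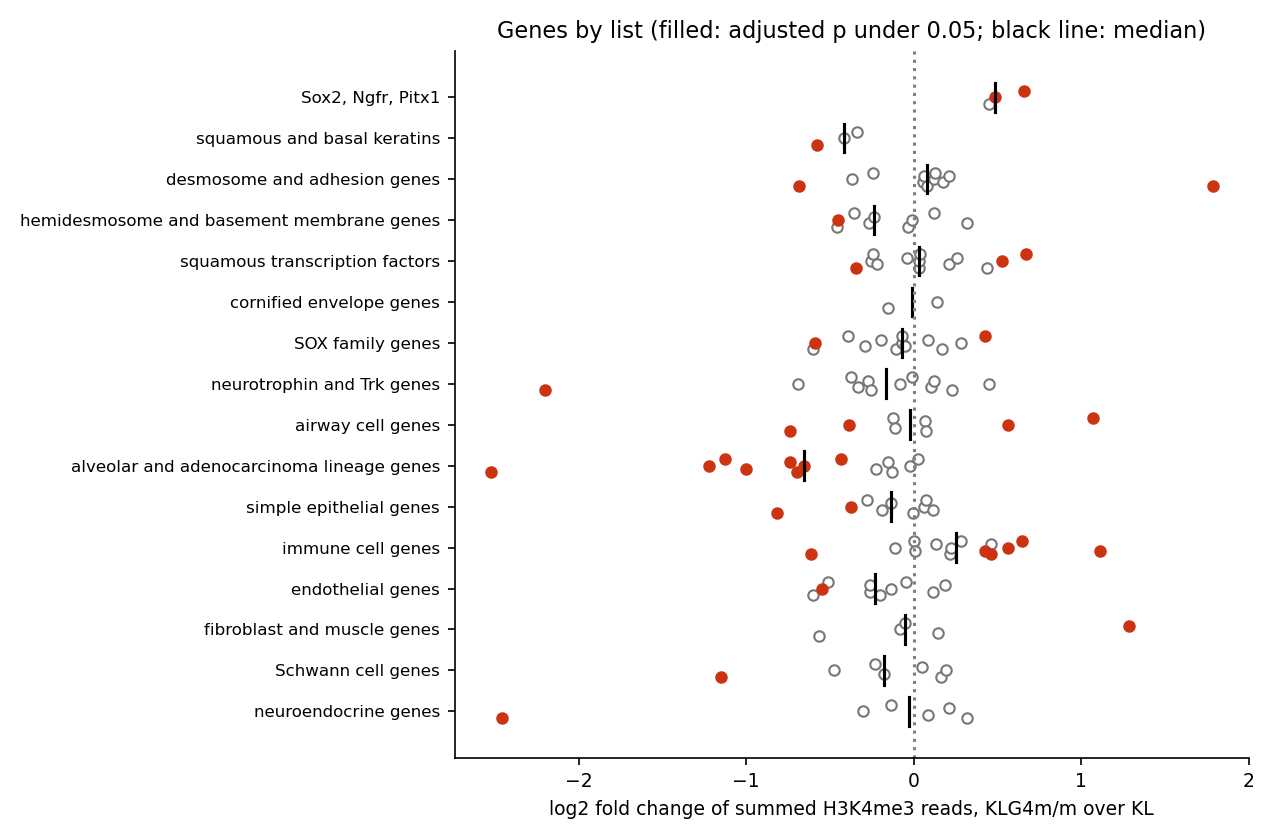
Log2 fold change of summed H3K4me3 reads, KLG4m/m over KL (horizontal axis), for each listed gene of Sox2, Ngfr and Pitx1 and of 15 gene lists (vertical axis), with filled points for an adjusted p under 0.05 and a black line for the median of the list. The squamous lists scatter around 0 (median 0.01 together), the alveolar list lies to the left (median -0.65) and the immune list to the right (median 0.25).

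Markers of other cell types moved beside the members. Of 15 immune genes 14 were listed, 5 rose and 1 fell, and their summed level was 384 to 396 CPM in KL and 448 to 464 CPM in KLG4m/m. Ms4a1, a B cell gene, rose by 0.65 (adjusted p = 0.0123), Itgam by 0.56 (adjusted p = 8.33e-05), and Lyz2, used by macrophages and alveolar cells, fell by 0.61 (adjusted p = 1.57e-04). Of 10 simple epithelial genes 9 were listed, none rose, and Epcam, on which the cells were sorted, and Cdh1 fell by 0.82 and 0.38 (adjusted p = 1.56e-06 and 0.00396), with a summed level of 409 to 415 CPM in KL and 359 to 366 CPM in KLG4m/m. In each of the other 4 lists 1 gene changed. Among the endothelial genes, all 10 of them listed, Tek, a receptor of vessel walls, fell by 0.55 (adjusted p = 0.0205; -0.29 and not called at the nearest peak), and the summed level was 317 to 364 CPM in KL and 311 to 328 CPM in KLG4m/m. Pdgfrb, a receptor of pericytes, rose by 1.29 (adjusted p = 0.0155) among 5 listed of 11 fibroblast and muscle genes, which lacked Col1a2, Col3a1 and Dcn and summed to 91.7 to 102 CPM in KL and 93.0 to 99.9 CPM in KLG4m/m. Schwann cells also carry NGFR: 7 of 10 of their genes were listed, with no peak for Sox10 and Gfap, at 290 to 299 CPM in KL and 281 to 304 CPM in KLG4m/m, and S100b fell by 1.15 (adjusted p = 3.36e-04). Of 8 neuroendocrine genes 6 were listed, with no peak for Uchl1, at 67.8 to 67.9 CPM in KL and 63.8 to 65.4 CPM in KLG4m/m, and Insm1 fell by 2.46 (adjusted p = 1.11e-07). The part of these cells in the values of Sox2, Pitx1 and Ngfr was not tested.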

How the data were processed

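H3K4me3 CUT&Tag used 1000000 sorted tumor cells per mouse, cut with a protein A/G-MNase, per the labels. The authors trimmed reads with Trim Galore 0.6.10, aligned them with BWA 0.7.15, removed duplicates with Picard 2.17.3 and reads of low mapping quality, called peaks with MACS2 2.2.7.1 and used HOMER 4.11.1, per the labels and the study's methods. The deposited values used here are raw read counts per peak and library, with the annotation and distance to the nearest start that the authors added. The authors' 4 per-library CPM columns and their own fold changes, p-values and FDR values were not used. The methods name the mouse genome of Ensembl release 94 for the alignment, but start sites in the table differ from those of GRCm38.p6, so its build is uncertain and no coordinate was converted. Peaks were tested with edgeR 4.0.16 (quasi-likelihood, TMM) and R 4.3.3 over all 35486 peaks, and over the sums of 20871 genes, with Benjamini-Hochberg adjustment at 0.05. The standard error is the absolute log2 fold change over the square root of F. DESeq2 1.42.0, limma 3.58.1 on log2(CPM + 1), other scalings, a minimum of 10 CPM and leaving out each library were alternatives. The scripts were tested on simulated data. The members and gene lists were chosen with earlier results of these data known. Named from each list were up to 4 genes past the threshold with the largest change or, with none, the 2 with the highest level, and every gene with a peak within 500 kb of Sox2. Lung and epithelial promoters set beside Sox2, and genes of lists named beyond this rule, were chosen for their known roles. Replicate libraries differed only slightly more than sampling noise over all peaks (chi-square per degree of freedom 1.13 in KL and 1.23 in KLG4m/m). None was counted as a duplicate, but this does not show that they are separate mice, which was not tested. The adjusted p-values may therefore not measure the spread between mice. A few genes and alleles are not reported here.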

Additional observations from a re-analysis of the deposited data

How the results depend on the processing

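All 7 peaks of Sox2, Pitx1 and Ngfr kept a log2 fold change above 0 in every alternative in which they were tested. The number of them called higher, 1 in edgeR, was 0 in DESeq2, 0 in limma and 0 with a minimum mean of 10 CPM, which leaves 3 of the 7 and removes the Sox2 peak at 7.18 kb, and it ranged from 0 to 2 when 1 library was left out, the second peak being that of Pitx1 at 2.98 kb without KL replicate 1. At an unadjusted p under 0.05 it was 2 in edgeR, 1 in DESeq2, 2 in limma and 1 with the minimum. The number of gene sums called higher, 2 in edgeR, was 0 in DESeq2, 0 in limma and 0 with only the peak nearest the start, and 0 to 1 without 1 library. In the gene lists, 12 higher calls became 3 in DESeq2, 1 in limma and 6 with the nearest peak, and 0 to 5 without 1 library, and 22 lower calls became 9, 3, 19 with the nearest peak and, without 1 library, 0 to 18. Of these 34 calls, 12 held in DESeq2 and 4 in limma, all 34 kept their sign in both, and none held without KLG4m/m replicate 3 or 4, when edgeR called 0 of all peaks and genes (at an unadjusted p under 0.05, 2251 peaks higher and 3235 lower without replicate 3, 2228 and 2950 without replicate 4). Over all peaks DESeq2 called 33 higher and 244 lower and limma 0 and 0 (unadjusted 2894 and 4436), against 1099 and 1960. The cause of these losses was not tested. No paired analysis was possible because the KL libraries are numbered 1 and 2 and the KLG4m/m libraries 3 and 4. Reads of 10 to 57 per peak and library, and 2 libraries per group, limit the precision of each value.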
